A study of Mus musculus with 4 samples.

Results

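The LIM homeobox loci examined here are the 10 mouse genes Lhx1, Lhx2, Lhx5, Lhx6, Lhx8, Lhx9, Lmx1a, Lmx1b, Isl1 and Isl2. Members were the regions of the deposited Ring1b table that overlap a fixed window (build mm9) around each gene, and 7 of the 6371 regions met this rule. They lay at 4 of the 10 loci: 3 at Lhx1, 1 at Lhx2, 2 at Lhx9 and 1 at Lmx1a. The windows of the other 6 genes (Lhx5, Lhx6, Lhx8, Lmx1b, Isl1 and Isl2) held no region. Ring1b was profiled by ChIP-seq in C3H10T1/2 cells, a mesenchymal progenitor line from mouse embryo. Both cultures stably made histone H3.3 with a FLAG-HA tag, one the wild-type form (WT) and the other the K36M form, in which methionine replaces the lysine that normally carries H3K36 methylation. Each form has 1 Ring1b library, so no value carries an error between cultures and no test of the forms was possible. Whether either culture is 1 clone, and how much tagged histone it made, is not given in the sources used here.

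LIM homeobox proteins are transcription factors with a pair of LIM domains, zinc-binding modules that contact partner proteins such as Ldb1, in front of a DNA-binding homeodomain. They specify neurons and pattern embryonic organs, and in vertebrates most of them come as pairs of close relatives. The genes examined here pair as Lhx1 with Lhx5, Lhx2 with Lhx9, Lhx6 with Lhx8, Lmx1a with Lmx1b, and Isl1 with Isl2. Such developmental regulators are classic targets of Polycomb repression in cells that do not use them. Ring1b is the ubiquitin ligase of Polycomb repressive complex 1, which modifies histone H2A and in vertebrates is often found over DNA rich in CG dinucleotides.

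The promoters are shown to let a reader see how far these genes differ in CG content. Each line gives the 250 bases before a RefSeq start on the reference build GRCm38.p6, 5′ to 3′ on the gene's strand, with CG dinucleotides in capitals. The promoters of the 4 genes with a region come first (at Lhx2, the first of its starts), then those of Isl1 and Lhx8. Among the genes without a region that had a RefSeq start, Isl1 held the most CG and Lhx8 the fewest.
Lhx1: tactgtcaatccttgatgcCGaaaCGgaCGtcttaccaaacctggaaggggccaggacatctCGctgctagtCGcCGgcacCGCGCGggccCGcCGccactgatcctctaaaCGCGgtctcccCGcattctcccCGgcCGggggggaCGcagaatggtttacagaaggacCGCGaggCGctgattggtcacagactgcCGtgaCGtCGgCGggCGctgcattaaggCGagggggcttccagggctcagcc
Lhx2: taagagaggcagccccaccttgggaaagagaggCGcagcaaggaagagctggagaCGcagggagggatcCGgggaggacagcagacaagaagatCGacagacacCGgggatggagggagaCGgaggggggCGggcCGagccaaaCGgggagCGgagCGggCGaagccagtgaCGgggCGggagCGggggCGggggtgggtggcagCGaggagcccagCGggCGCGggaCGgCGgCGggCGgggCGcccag
Lhx9: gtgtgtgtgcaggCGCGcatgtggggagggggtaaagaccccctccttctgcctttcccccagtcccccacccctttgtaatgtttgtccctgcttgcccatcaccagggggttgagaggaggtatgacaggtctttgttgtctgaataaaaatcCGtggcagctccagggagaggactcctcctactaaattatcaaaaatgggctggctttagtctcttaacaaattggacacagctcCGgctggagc
Lmx1a: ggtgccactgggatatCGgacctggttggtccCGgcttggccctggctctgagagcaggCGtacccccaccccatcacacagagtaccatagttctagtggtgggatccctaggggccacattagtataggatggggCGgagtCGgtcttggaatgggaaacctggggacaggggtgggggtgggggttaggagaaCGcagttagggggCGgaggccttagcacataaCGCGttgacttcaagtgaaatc
Isl1: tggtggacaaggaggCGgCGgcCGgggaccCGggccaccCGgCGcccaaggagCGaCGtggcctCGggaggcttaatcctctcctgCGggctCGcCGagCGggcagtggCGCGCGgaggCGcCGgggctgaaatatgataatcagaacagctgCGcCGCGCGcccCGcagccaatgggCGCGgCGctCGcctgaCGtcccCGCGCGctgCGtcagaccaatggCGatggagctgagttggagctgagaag
Lhx8: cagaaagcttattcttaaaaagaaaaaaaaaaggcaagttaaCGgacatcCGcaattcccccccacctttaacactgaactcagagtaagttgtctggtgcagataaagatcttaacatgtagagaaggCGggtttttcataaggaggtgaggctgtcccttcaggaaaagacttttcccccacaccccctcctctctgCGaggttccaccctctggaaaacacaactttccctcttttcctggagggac
These stretches lie on GRCm38 at chr11:84525535-84525784 (minus strand, Lhx1), chr2:38339031-38339280 (plus, Lhx2), chr1:138842445-138842694 (minus, Lhx9), chr1:167689308-167689557 (plus, Lmx1a), chr13:116309689-116309938 (minus, Isl1) and chr3:154330561-154330810 (minus, Lhx8). The Ring1b regions are on mm9, and positions were not converted between the builds, so whether a region covers the stretch printed for its gene was not determined.

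The RefSeq table held 12 starts for 9 of the 10 genes and no start for Lhx5. Of these 12 stretches, 10 had more CG than the median of 6 over all 32851 promoters (quartiles 2 and 16, with at least 1 in 92.1% of all). Among genes with a region, the Lhx1 promoter held 26 CG and the Lhx2 promoters 25 and 24, each above at least 88.0% of all promoters. The Lmx1a promoter held 9 and the Lhx9 promoter 4, which is below the median. Among genes without a region, Isl1 held 33, the most of the 12 stretches. Lmx1b held 19, Isl2 16, the 3 Lhx6 starts 14, 17 and 7, and Lhx8 4. The 2 sets overlapped: CG content of these stretches did not separate the loci with a region from those without. The letters TAATTA, the core bound by many homeodomains and the same on both strands, were found in 0 of the 12 stretches and in 4.84% of all promoters.

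**Figure D1:**
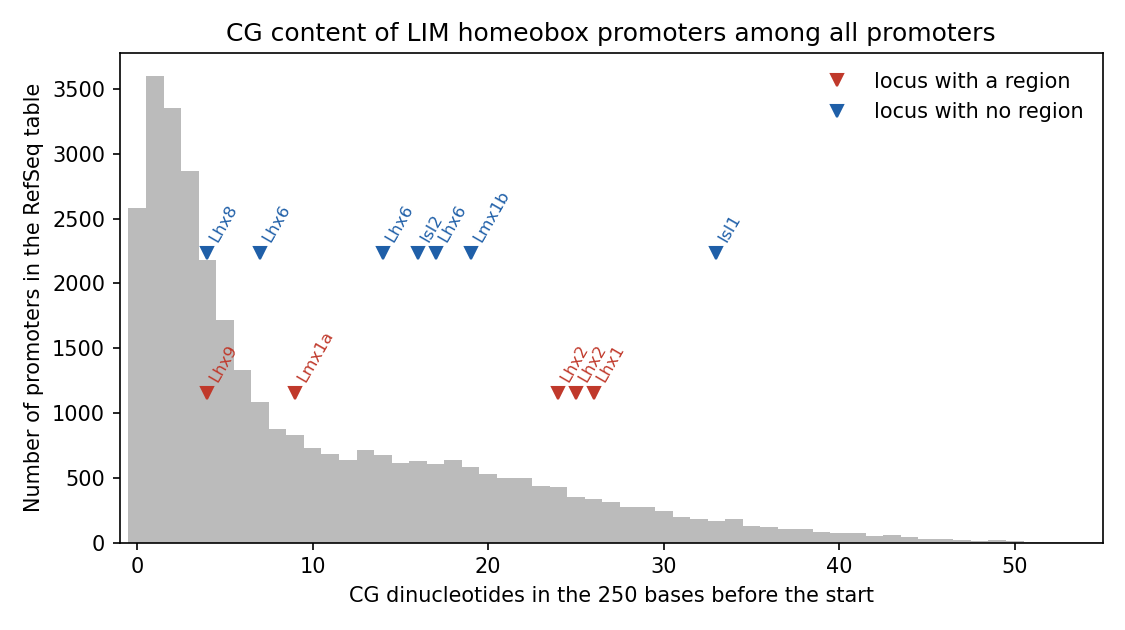
Number of promoters (vertical axis) by CG dinucleotides in the 250 bases before the start (horizontal axis) for all 32851 RefSeq promoters (grey bars), with the LIM homeobox promoters marked as triangles at heights chosen for legibility. Promoters of loci with a region (red) run from 4 to 26 CG and those of loci with no region (blue) from 4 to 33, so the sets overlap.

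All 7 regions at the LIM homeobox loci had lower Ring1b levels in the K36M library than in the WT library, as did 85.1% of all regions. Summed over the 7, the WT library held 48.3 RPM (reads per 1000000 reads) and the K36M library 14.8 RPM, from 1443 and 466 reads. K36M thus held 30.6% of the WT level, with a 95% counting interval of 27.5% to 33.9%. RPM is a share of a library's reads, so the percentage compares shares and not absolute amounts of Ring1b. Both sums include background reads, whose part was not measured. The interval covers counting error only and takes each read as independent. Without molecular identifiers several reads can stem from 1 molecule, so the interval can be too narrow. Over all 6371 regions the K36M sum was 63.4% of the WT sum. Single regions held between 19.6% and 41.1% of their WT level. The regions of the table were chosen in the WT library, and a second library can lie lower at such regions to an unknown extent, which was not tested.

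All 7 regions were at least 2-fold lower in K36M, a class that held 33.5% of all regions. Of the 7, 2 were at least 4-fold lower, against 8.26% of the whole table. All 7 counting intervals lay below 1, against 65.1% of the whole table. The fold calls used the log2 ratio after adding 0.1 RPM to both values, which understates the change of low regions, and the intervals used the reads themselves. The first Lhx1 region, 5.11-fold lower without this addition, had a log2 ratio of -1.88 with it and so is not among the 2. The median log2 ratio of the 7 was -1.50 (from -2.05 to -1.26), and that of all regions was -0.65, with quartiles -1.22 and -0.20. Relative to the median of all regions, the 7 lay from -1.39 to -0.61, and 3 of them were then still at least 2-fold lower. The 3 Lhx1 regions touch one another, so the 7 regions are 5 separate sites and do not count as 7 independent observations.

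**Figure D2:**
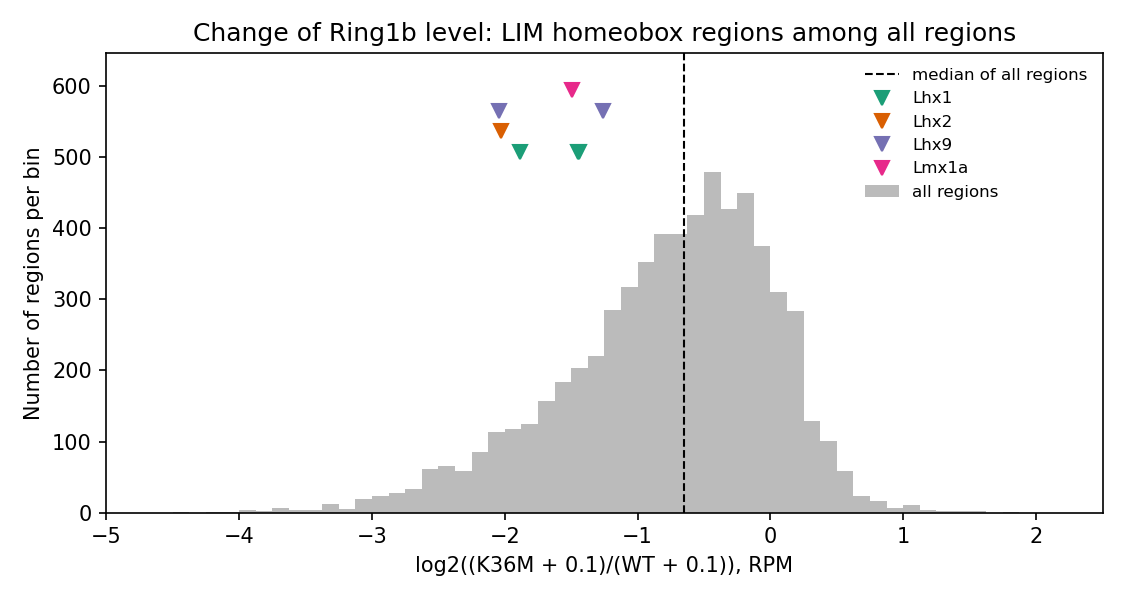
Number of regions (vertical axis) by log2((K36M + 0.1)/(WT + 0.1)) of the RPM values (horizontal axis, bins of 0.125) for all 6371 regions (grey bars), with the 7 LIM homeobox regions as triangles at heights chosen for legibility. All 7 lie left of the lower quartile of all regions at -1.22, and the dashed line is the median of all regions at -0.65; 2 of the Lhx1 triangles, at -1.45 and -1.44, coincide.

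Lhx1 is needed for head formation and for the kidney. Its window (chromosome 11, 84.28 to 84.38 Mb) held a chain of 3 touching regions that span chr11:84330601-84335000 and lie close to the middle of the window. The first, chr11:84330601-84330800, is 200 bp wide, and its level was 0.972 RPM in the WT library and 0.190 RPM in the K36M library, 29 and 6 reads. It was 5.11-fold lower in K36M, with a wide counting interval of 2.08-fold to 15.0-fold. The second, chr11:84330801-84331000, also 200 bp, stood at 1.04 and 0.317 RPM, from 31 and 10 reads, and was 3.28-fold lower (interval 1.57 to 7.49). The third, chr11:84331001-84335000, held most of the chain's reads. Its WT level of 7.30 RPM compared with 2.63 RPM in K36M, and it was 2.78-fold lower (interval 2.15 to 3.62). By the point values the narrow end of the chain had the lowest ratios, but the differences in ratio between its 3 regions were within counting error: the ratio of the first was 0.544 times that of the third, with an interval of 0.178 to 1.40.

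Read density, the value divided by width, was highest in the narrow end of the Lhx1 chain. In WT the 200-bp regions held 4.86 and 5.19 RPM per kb and the 4000-bp region 1.83. In K36M they held 0.951, 1.59 and 0.658 RPM per kb. The 200-bp regions of the whole table had a median WT density of 9.38 RPM per kb and a median K36M density of 8.40, so at Lhx1 both libraries lay below the median region of that width. As a whole, the chain held 9.31 RPM in the WT library and 3.14 RPM in the K36M library, a 2.97-fold difference with an interval of 2.35 to 3.77.

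Lhx2, which acts in the forebrain, the eye and the limb, had a single region at chr2:38192401-38198600, 6200 bp wide, in a window of 38.15 to 38.26 Mb. Its WT level was 9.21 RPM and its K36M level 2.19 RPM, from 275 and 69 reads. This was 4.21-fold lower, with an interval of 3.22 to 5.57. Its WT value was above that of 82.8% of the 1427 regions of 4200 to 8000 bp, and its K36M value above that of 7.78% of them. Only 3.01% of that width class had a lower log2 ratio.

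Lhx9, the relative of Lhx2 and a regulator of gonad and limb formation, had 2 regions in its window (chromosome 1, 140.68 to 140.79 Mb), which together covered 12400 bp, or 11.3% of the window. The first, chr1:140724401-140728400, had the highest WT value of the 7, 13.5 RPM, and a K36M value of 3.20 RPM, from 404 and 101 reads. It was 4.23-fold lower, with an interval of 3.39 to 5.31. Its WT value was above that of 98.3% of the 933 regions of 2200 to 4000 bp, and its K36M value above that of 64.0% of them. The second, chr1:140731601-140740000, is 8400 bp wide and the widest member. Its WT level was 9.48 RPM and its K36M level 3.90 RPM, from 283 and 123 reads, and was 2.43-fold lower (interval 1.96 to 3.03).

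The 2 Lhx9 regions therefore changed order between the libraries. The first was the higher in WT and the second the higher in K36M, although in K36M their counting intervals, 2.61 to 3.89 and 3.24 to 4.65 RPM, overlapped. The K36M to WT ratio of the first was 0.576 times that of the second, with an exact interval of 0.419 to 0.788 that leaves out 1. Per kb, the first remained the denser in both libraries, at 3.38 against 1.13 RPM per kb (WT) and 0.800 against 0.464 (K36M). Among the 4 pairs of regions that share a locus, this was the 1 pair whose interval left out 1. The other 3 are the pairs within the Lhx1 chain, where the narrow regions have few reads. Background reads were not taken off, and the second Lhx9 region is 8400 bp wide against 4000 bp for the first. How much background adds to the order and to the ratios of these 2 regions was not tested.

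Lmx1a, a regulator of the roof plate and of midbrain dopamine neurons, had 1 region at chr1:169590201-169593000, 2800 bp wide, in a window of 169.58 to 169.82 Mb. Its WT level was 6.80 RPM and its K36M level 2.35 RPM, from 203 and 74 reads, and was 2.90-fold lower (interval 2.21 to 3.84). This region lay 10.2 kb from the start of its window, whereas those of Lhx1, Lhx2 and Lhx9 lay 42.4 to 51.6 kb inside theirs. The table names no gene, so that it is assigned to Lmx1a by its window only.

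**Figure D3:**
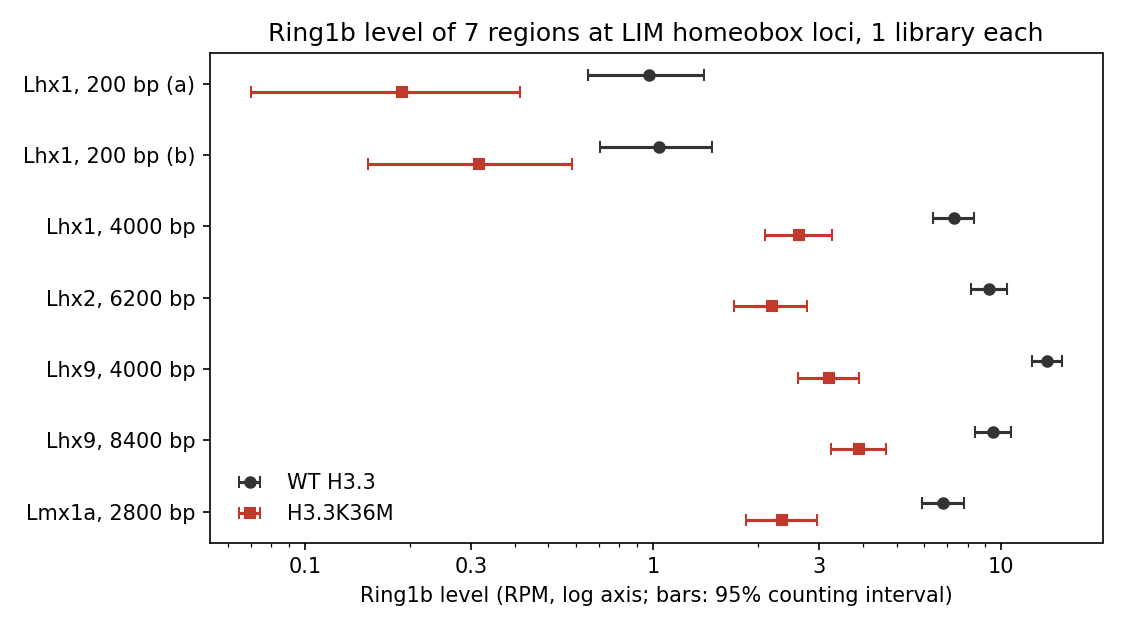
Ring1b level in RPM (horizontal log axis) of each of the 7 regions (vertical axis, by locus and width; a and b are the first and second 200-bp region) in the WT library (circles) and the K36M library (squares), with bars for the 95% counting interval of each library. The K36M square lies to the left of the WT circle in every region with no overlap of the bars, and the bars of the 200-bp Lhx1 regions are the widest. The vertical shift between square and circle is for legibility only.

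Set side by side per length, the 4 loci kept one order in both libraries. In WT, the density over the regions of a locus was 2.43 RPM per kb at Lmx1a (interval 2.11 to 2.79), 2.12 at Lhx1 (1.88 to 2.38), 1.86 at Lhx9 (1.72 to 2.00) and 1.49 at Lhx2 (1.32 to 1.67). In K36M it was 0.838 at Lmx1a (0.658 to 1.05), 0.713 at Lhx1 (0.580 to 0.868), 0.573 at Lhx9 (0.500 to 0.653) and 0.353 at Lhx2 (0.274 to 0.446). Lmx1a and Lhx1, and likewise Lhx1 and Lhx9, had overlapping counting intervals in both libraries, whereas those of Lhx9 and Lhx2 did not overlap in either. Densities depend on where the borders of a region were set, and over the whole table they fell with width. The median WT density was 9.38 RPM per kb for regions of 200 bp and 1.51 for 2200 to 4000 bp. It was 1.10 for 4200 to 8000 bp and 0.823 for 8200 to 16000 bp. The loci differ in the widths of their regions, so their order was not separated from width. The densities also include background reads, which were not taken off.

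The share of the WT level found in K36M was 34.5% at Lmx1a (interval 26.1% to 45.2%), 33.7% at Lhx1 (26.5% to 42.5%), 30.9% at Lhx9 (26.4% to 35.9%) and 23.7% at Lhx2 (18.0% to 31.0%). Lhx2 thus had the lowest share, but each of the 6 comparisons between loci had an interval that included 1. Background reads were not taken off, and how much of each share they make up was not tested. For the related pair, the K36M to WT ratio of Lhx2 was 0.770 times that of Lhx9 (interval 0.559 to 1.05). The ratio of Lhx1 was 1.42 times that of Lhx2 (0.986 to 2.05). These intervals allow differences between loci that 1 library per form cannot settle. Of the 5 related pairs examined, only Lhx2 and Lhx9 had a region at both genes. At Lhx1 and Lmx1a the partner gene had none.

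The members were also low among regions of like width. Set against the median of their own width class, the 7 log2 ratios lay from -1.73 to -0.70. The share of the class with a lower ratio was 7.71% and 12.9% for the narrow Lhx1 regions, 17.8% for the 4000-bp Lhx1 region, 3.01% at Lhx2, 5.68% and 10.1% for the first and second Lhx9 regions, and 15.4% at Lmx1a. In WT, 5 of the 7 regions were above the median value of all regions (4.66 RPM), and in K36M 2 of the 7 were above that median (2.88 RPM). Both of those were the Lhx9 regions.

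Other regions within 1 Mb of these windows were described beside the members. At Lhx9, 4 such regions had a median log2 ratio of -0.08, with 0 at least 2-fold lower. At Lhx1, 4 regions had a median of -0.30, with 1 at least 2-fold lower, and at Lhx2, 4 regions had a median of -0.57, again with 1. At Lmx1a, 13 regions had a median of -0.96, of which 5 were at least 2-fold lower. Around the loci without a region, the median was -1.03 at Lhx6 (4 of 7 at least 2-fold lower), -0.63 at Isl2 (2 of 13) and -0.43 at Lmx1b (0 of 5), the single region near Lhx8 stood at -1.70 and that near Isl1 at 0.76, and Lhx5 had 0 regions in reach. The whole-table share at least 2-fold lower was 33.5%, and with so few regions per locus nothing is read from these counts. Of the 13 at Lmx1a, 4 lay within 200 kb of the window, on the side of its end, from 58.2 kb outwards.

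The 6 loci without a region are those of Lhx5, a forebrain relative of Lhx1; Lhx6 and Lhx8, which act in basal forebrain neurons and in the mesenchyme of the teeth and jaw; Lmx1b, which specifies the dorsal side of the limb; and Isl1 and Isl2, which act in motor neurons, with Isl1 also in heart progenitors. For these loci no Ring1b value can be given for either library: the table lists regions associated with peaks of the WT library and holds no value elsewhere, and a site bound in K36M cells alone would have no entry. The distance from their windows to the nearest region of the table ran from 145.0 kb (Lhx6) to 1849 kb (Lhx5). It was 294.0 kb at Isl2, 298.0 kb at Lmx1b, 339.2 kb at Lhx8 and 504.4 kb at Isl1. Widening every window by 50 kb on each side added no region at any of the 10 loci.

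Before the Lhx6 window, 4 regions lay between 145.0 and 159.4 kb away, at chr2:35737401-35755000. Their values were 13.2 against 6.44 RPM, 12.1 against 4.44 RPM, 9.61 against 4.34 RPM and 2.81 against 0.951 RPM in WT and K36M. They were 2.06-fold to 2.96-fold lower in K36M, and each counting interval lay below 1. All 4 regions are outside the window and are not counted as Lhx6 regions.

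**Figure D4:**
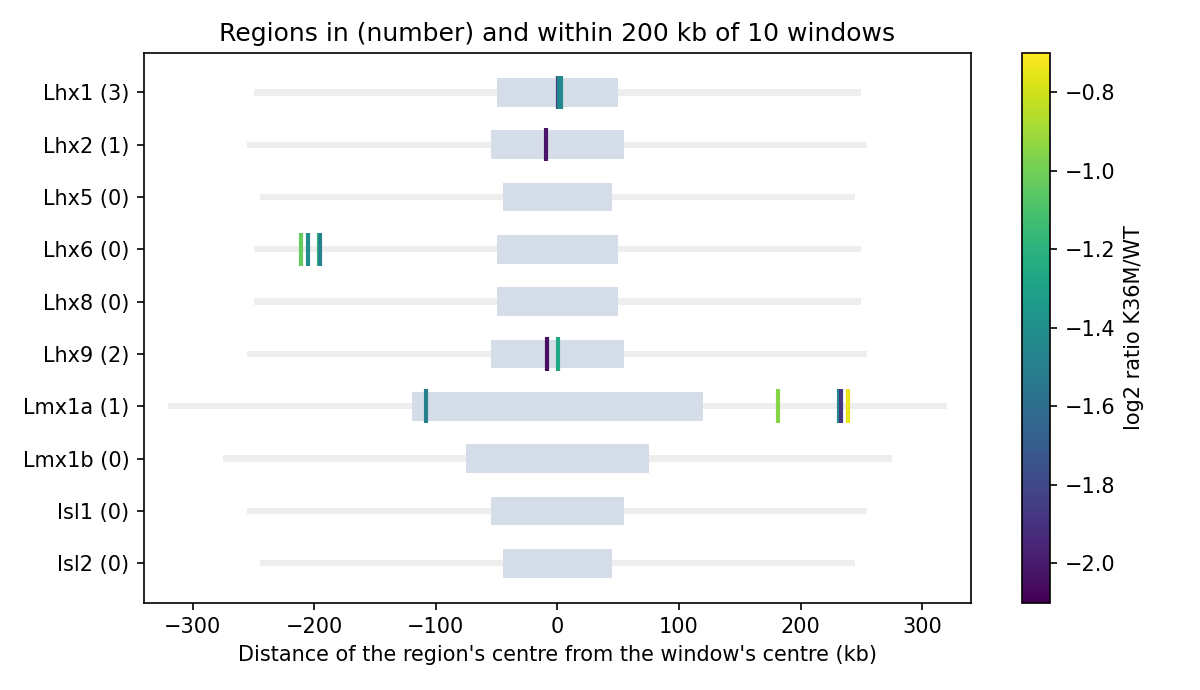
Position of each region's centre relative to the centre of the gene's window (horizontal axis, kb) for the 10 loci (vertical axis, with the number of regions in the window), as ticks coloured by log2 ratio of K36M over WT; tick width is not region width. Blue-grey blocks are the windows and thin grey bars the 200 kb on each side; ticks fall in the blocks of Lhx1, Lhx2, Lhx9 and Lmx1a, and outside the blocks near Lhx6 and Lmx1a only.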

How the data were processed

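Ring1b ChIP-seq was deposited by the authors as 1 table of 6371 regions with a value for each of 2 Ring1b libraries; the 2 input libraries were not used here. Bowtie 1.0.0 and build mm9 are named in the submitters' processing notes. For the peak caller and the counting of reads, nothing is given in the sources used here. The columns are headed RPKM, but all deposited values are whole multiples of 0.0335 (WT) or 0.0317 (K36M), within 0.01 reads and whatever the width, and are treated as RPM scaled by the authors. Dividing by the step gave whole reads, 1075510 (WT) and 720528 (K36M) in the whole table.

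Members were regions overlapping a window; starts, counted from 0 in the table, are printed counted from 1. Members and the comparisons were chosen with earlier results of these data known. All member loci are named with their values. Ratios carry exact (Clopper-Pearson) 95% counting intervals; ratios between loci carry exact conditional ones. Width classes were 200, 400, 600 to 1000, 1200 to 2000, 2200 to 4000, 4200 to 8000, 8200 to 16000 bp and wider. Comparisons with regions within 1 Mb, between unrelated loci and between regions of a locus were chosen after seeing the data. Alternatives covered the pseudocount, centring, width, reads, window and merging. Python 3.11.15, numpy 2.4.6, scipy 1.17.1 and pandas 2.3.3 were used.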

Additional observations from a re-analysis of the deposited data

How the results depend on the processing

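Of 48 recomputed values, 45 stayed within set limits and 0 changed direction. The limits were the range of the 7 regions for a median, 1.5-fold for a count, and the counting interval for a summed ratio. Several alternatives could not move a value. Taking only regions wholly inside the windows, or widening the windows by 50 kb, kept the same 7 regions. The filters on width and on reads kept the same 5 regions. A median over part of the 7 regions cannot leave their range, and since all 7 were lower, no such part can change direction. The ratios of Lhx2, Lhx9 and Lmx1a were the same value in all 4 of their alternatives. The count of 45 is therefore no measure of how robust the results are. The median log2 ratio of the 7 regions was -1.19 with a pseudocount of 1 and -0.84 after centring on the median of all regions, and ran from -1.76 to -0.84 over all alternatives. After centring, 3 regions were at least 2-fold lower, those at Lhx2, the first Lhx9 region and the first Lhx1 region. With a pseudocount of 1, 5 regions were at least 2-fold lower. The summed ratio ran from 0.298 without the Lhx1 locus to 0.322 without the Lhx2 locus, against 0.306. Dividing the values by width before adding the pseudocount, an alternative chosen after seeing the data, gave a median of -1.65. No paired analysis was possible because each form of H3.3 has 1 Ring1b library. Depth limits the 200-bp Lhx1 regions most, with 6 and 10 reads in K36M. Background reads were not taken off, since input values were not analysed.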
